A study of Homo sapiens with 12 samples.

Results

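The levels of 10 aldehyde dehydrogenase genes were followed in 2 Ewing sarcoma cell lines, TC71 and TC32, 6 h after exposure to mithramycin. The genes are ALDH8A1, ALDH1A1, ALDH1A2, ALDH1A3, ALDH1B1, ALDH2, ALDH3A2, ALDH7A1, ALDH9A1 and ALDH18A1. Every probe set of the arrays that is annotated to 1 of these 10 symbols alone was taken, which gave 18 probe sets of 54613, for 10 genes of 19775. No probe set was removed for a low value. Of the genes, 4 have 1 probe set each and 6 have several. The group was drawn up around ALDH8A1 because that gene had the largest increase with mithramycin when the effects of both lines are averaged, so effects of mithramycin on the members are described below without a test. The choice of ALDH8A1 did not use differences between the lines or the difference between the 2 lines' effects, and these were tested. The other members were listed with earlier results of these data known, so these tests are not free of that knowledge.

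The 4 groups were TC71 cells with 100 nM mithramycin, TC71 cells with solvent, TC32 cells with 100 nM mithramycin and TC32 cells with solvent, each with 3 biological replicates on 1 array each. Ewing sarcoma is a tumour of bone and soft tissue of children and young adults that is driven by a fusion of the EWSR1 gene with an ETS factor gene, most often FLI1. Mithramycin is an antitumour antibiotic that binds GC-rich DNA in the minor groove. Each line is a single established culture, so what is measured is how these 2 lines differ and not how tumours differ. The values are log2 RMA values per probe set, a relative scale on which 1 unit is a doubling and on which different probe sets cannot be set against each other.

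The arrays of a group correlated at 0.995 or above over all probe sets. All 9 measured Ewing sarcoma markers, CD99, FLI1 and NKX2-2 among them, lay above the array median in each of the 4 groups. Their mean level was lower with mithramycin, between 8.54 and 8.65 in TC71 with mithramycin and between 9.06 and 9.12 in TC71 controls, and between 8.85 and 8.90 in TC32 with mithramycin and between 9.29 and 9.35 in TC32 controls. In the mean of both lines 6 of the 9 fell, 0 rose and 3 did not pass (limma, adjusted p under 0.05; among all genes 20.2% were called lower and 30.9% higher), and the part of this shift in the results was not tested. Of 8 liver and kidney markers, tissues known for ALDH8A1, 2 lay above the median in every group, and the list's mean level ran between 3.80 and 3.91 in TC71 with mithramycin, 3.72 and 3.79 in TC71 controls, 3.81 and 3.99 in TC32 with mithramycin, and 3.64 and 3.75 in TC32 controls. Of the 8, APOA1 (0.38 ± 0.06), TF (0.36 ± 0.08) and ALB (0.20 ± 0.07) rose with mithramycin in the mean of both lines (SE, limma adjusted p = 1.08e-04, 1.86e-03 and 0.0422). The part of that shift in the results was not tested. Blood markers lay above the median in 1 of 4 cases in each group, epithelial markers in 2 of 5, endothelial markers in 0 of 4 in TC71 and 1 of 4 in TC32, and fibroblast markers in 4 of 5 in TC71 and 3 of 5 in TC32. One array stood apart in an RNA integrity measure: the signal of the 3′ beta-actin control minus that of the 5′ control was 2.0 in TC71 control replicate 1. The measure averaged 0.88 ± 0.10 in TC71 with mithramycin and 1.45 ± 0.48 in TC71 controls (SD, n = 3 each, exact permutation p = 0.1, two-sided, the smallest that 3 against 3 arrays allow). In TC32 it averaged 0.60 ± 0.08 with mithramycin and 0.71 ± 0.04 in controls (SD, n = 3 each, exact permutation p = 0.2).

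Aldehyde dehydrogenases oxidize aldehydes to carboxylic acids with NAD or NADP as the electron acceptor. ALDH8A1 removes an aldehyde formed during tryptophan breakdown in the kynurenine pathway and is best known from liver and kidney. ALDH1A1, ALDH1A2 and ALDH1A3 turn retinaldehyde into retinoic acid, the ligand of the nuclear receptors RAR, and the activity of ALDH1 enzymes is widely used to sort stem-like cells of normal and tumour tissue. ALDH1B1 and ALDH2 are mitochondrial enzymes that clear acetaldehyde, ALDH3A2 oxidizes long-chain fatty aldehydes, ALDH7A1 acts in lysine breakdown, ALDH9A1 acts in carnitine synthesis, and ALDH18A1 makes the precursor of proline.

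Because mithramycin is known to bind GC-rich DNA, the 250 bases before the transcription start are shown for the member with the largest mithramycin effect (ALDH8A1), the member with the largest line difference (ALDH1A1) and the member with the most GC-rich window (ALDH1A3). They are from RefSeq, build GRCh38.p14, 5′ to 3′ on the gene's strand. Capitals mark GGGCGG, the core of the GC box, and CCGCCC, the same motif read on the other strand, overlapping matches included.
ALDH8A1, chr6:134950102-134950351, minus strand: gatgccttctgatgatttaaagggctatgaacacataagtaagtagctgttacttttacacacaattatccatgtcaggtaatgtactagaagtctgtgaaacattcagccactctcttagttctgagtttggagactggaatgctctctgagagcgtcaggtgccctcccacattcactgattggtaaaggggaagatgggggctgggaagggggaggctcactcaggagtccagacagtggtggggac
ALDH1A1, chr9:72953054-72953303, minus strand: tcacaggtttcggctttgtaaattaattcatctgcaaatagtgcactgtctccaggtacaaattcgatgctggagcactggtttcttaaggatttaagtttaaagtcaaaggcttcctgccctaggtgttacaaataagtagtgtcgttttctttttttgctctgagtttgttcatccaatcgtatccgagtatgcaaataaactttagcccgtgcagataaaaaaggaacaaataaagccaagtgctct
ALDH1A3, chr15:100879581-100879830, plus strand: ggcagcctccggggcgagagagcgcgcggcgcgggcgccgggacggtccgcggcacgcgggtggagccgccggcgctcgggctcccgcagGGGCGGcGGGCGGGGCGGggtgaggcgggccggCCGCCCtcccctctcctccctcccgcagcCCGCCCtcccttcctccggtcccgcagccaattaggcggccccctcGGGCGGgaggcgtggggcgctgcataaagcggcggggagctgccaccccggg
The ALDH8A1 window was 47.6% G or C and held 0 matches, the ALDH1A1 window was 38.4% and held 0, and the ALDH1A3 window was 82.4% and held 6. Across the table, 42.6% of 35116 windows of this length held the motif on either strand, and the quartiles of GC content were 46.4%, 58.0% and 68.0%. Windows were listed for 9 members, 11 in all, of which 6 held a match. The others with matches were 1 of the 2 ALDH1A2 windows (72.8% GC, 2 matches), 1 of the 2 ALDH3A2 windows (73.2%, 4 matches), ALDH7A1 (64.0%, 3 matches), ALDH9A1 (67.2%, 2 matches) and ALDH1B1 (70.4%, 2 matches). The ALDH18A1 window was 68.8% G or C with 0 matches, the other ALDH1A2 window 41.6% with 0, and the other ALDH3A2 window 55.6% with 0. A match describes the letters only and is not a measured binding site.

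ALDH8A1 (probe set 220148_at) was the gene with the largest increase with mithramycin in TC71, in TC32 and in their mean. Decreases were not ranked. It read 5.47, 5.14 and 5.48 in TC71 cells with mithramycin, against 2.35, 2.47 and 2.67 in TC71 controls. In TC32 it read 6.11, 5.98 and 5.95 with mithramycin, against 2.14, 2.13 and 2.32 in controls. All mithramycin arrays were thus far above all control arrays in both lines, and no pair of groups overlapped. The log2 fold change was 2.87 ± 0.11 (SE) in TC71 and 3.82 ± 0.11 in TC32, which is 7.30-fold and 14.1-fold, and their mean was 3.34 ± 0.08, or 10.1-fold. Among all probe sets of an array, ALDH8A1 reached percentile 73.94 at its highest and percentile 7.41 at its lowest. The low end lies where array signal and background are hard to tell apart, and no detection calls were used here, so the folds are rough. The gene with the next largest mean increase was SCG5, a neuroendocrine secretory protein, at 2.71 (1.77 in TC71 and 3.65 in TC32), followed by COXFA4L3 at 2.32. Of probe sets with no gene name here, 240089_at had a larger mean effect than ALDH8A1 (3.61) and 244045_at a smaller one (3.01).

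**Figure D1:**
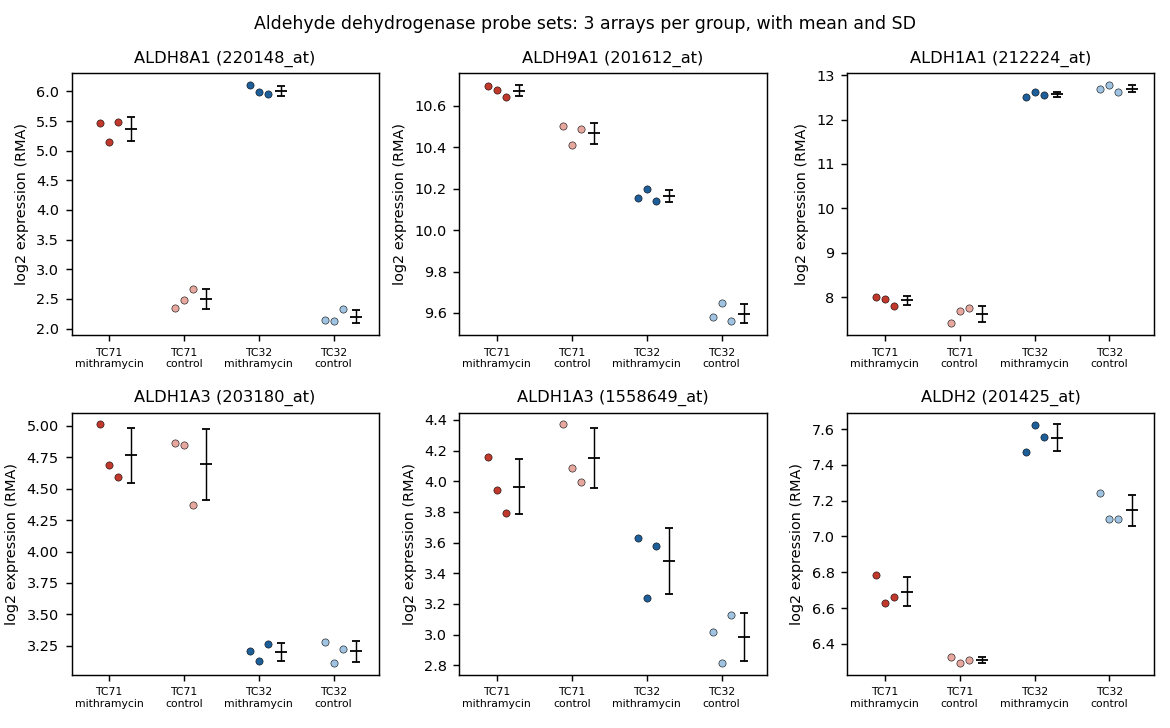
Log2 RMA value (vertical axis, a separate range for each panel) of 6 aldehyde dehydrogenase probe sets on the 12 arrays, by group. Points are arrays and the bar beside them is the mean with its SD (n = 3). ALDH8A1 stands between 5.14 and 6.11 on the mithramycin arrays and between 2.13 and 2.67 on the control arrays, while ALDH1A1 separates TC71 (7.41 to 8.01) from TC32 (12.52 to 12.78) with or without mithramycin.

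The genes whose profile over the 12 arrays was closest to that of ALDH8A1 were COXFA4L3, HOXB-AS1, RFPL3S, LRTM3 and AOC3. Closeness was measured as the root mean square difference between profiles, each centred on its own mean, with the brightest probe set per gene, and it was 0.540, 0.544, 0.573, 0.698 and 0.740 log2 units in that order. These genes were picked by the profile, so their effects are a description. COXFA4L3 changed by 1.87 in TC71 and 2.78 in TC32. HOXB-AS1, an antisense transcript of the HOXB cluster, changed by 1.81 and 2.81 in the same order of lines. For RFPL3S the values were 1.63 in TC71 and 2.96 in TC32, for LRTM3 1.46 and 2.59, and for AOC3, a cell surface amine oxidase, 1.24 and 2.58. ALDH8A1 exceeded each of these 5 in the size of the effect in both lines.

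**Figure D2:**
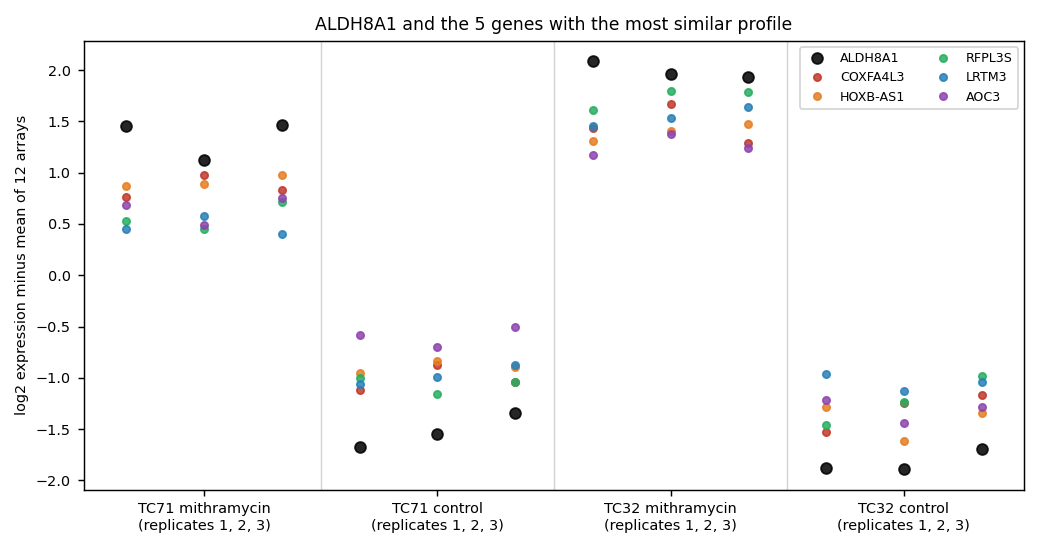
Log2 RMA value minus the mean over the 12 arrays (vertical axis) for ALDH8A1 and the 5 genes with the most similar profile, for each array in the 4 groups (horizontal axis). Each point is 1 array. All 6 genes lie above 0 on the mithramycin arrays and below 0 on the control arrays, with ALDH8A1 outermost.

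Among the retinaldehyde dehydrogenases, none had an effect of mithramycin near that of ALDH8A1. ALDH1A1 (212224_at) read 8.01, 7.97 and 7.81 in TC71 with mithramycin, against 7.41, 7.69 and 7.75 in TC71 controls, and 12.52, 12.63 and 12.56 in TC32 with mithramycin, against 12.70, 12.78 and 12.61 in TC32 controls. The TC71 mithramycin arrays lay just above their controls (log2 fold change 0.31 ± 0.09, SE), and the TC32 arrays overlapped theirs at the edge (-0.12 ± 0.09). What set ALDH1A1 apart was the line, with all 6 TC32 arrays more than 4 log2 units above all 6 TC71 arrays.

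ALDH1A3 has 2 probe sets, which gave the same order of the lines. On 203180_at it read 5.01, 4.69 and 4.60 in TC71 with mithramycin, against 4.86, 4.85 and 4.37 in TC71 controls, and 3.21, 3.13 and 3.27 in TC32 with mithramycin, against 3.28, 3.12 and 3.22 in TC32 controls. Both pairs overlapped, and the effects were 0.07 ± 0.13 in TC71 and -0.004 ± 0.13 in TC32. On 1558649_at the values were 4.15, 3.94 and 3.80 in TC71 with mithramycin, 4.37, 4.08 and 3.99 in TC71 controls, 3.63, 3.24 and 3.58 in TC32 with mithramycin, and 3.02, 2.82 and 3.13 in TC32 controls. Here the TC71 groups overlapped (-0.19 ± 0.13) and the TC32 mithramycin arrays lay above their controls (0.49 ± 0.13), so the 2 probe sets disagree on the effect in TC32. ALDH1A2, the main retinoic acid enzyme of the early embryo, read between 3.61 and 4.33 on 207015_s_at and between 2.59 and 3.10 on 207016_s_at over all 12 arrays. Both of these probe sets and 1558649_at of ALDH1A3 lay below the array median on every array, the only 3 member probe sets that did. Its effects were 0.28 ± 0.11 and -0.10 ± 0.12 in TC71, against 0.10 ± 0.11 and 0.20 ± 0.12 in TC32. The second probe set overlapped between all groups.

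The acetaldehyde enzyme ALDH2 (201425_at) was higher with mithramycin by nearly the same amount in both lines. It read 6.78, 6.63 and 6.66 in TC71 with mithramycin, against 6.32, 6.30 and 6.31 in TC71 controls, and 7.47, 7.62 and 7.55 in TC32 with mithramycin, against 7.24, 7.10 and 7.10 in TC32 controls. Neither line's groups overlapped, and the log2 fold change was 0.38 ± 0.07 in TC71 and 0.40 ± 0.07 in TC32. ALDH1B1 lay above its controls in TC71 without overlap on both probe sets (0.29 ± 0.08 on 209645_s_at and 0.40 ± 0.11 on 209646_x_at). In TC32 its groups overlapped on both (0.12 ± 0.08 and 0.08 ± 0.11).

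ALDH9A1 (201612_at), which makes gamma-butyrobetaine, the direct precursor of carnitine, was clear of its controls in both lines, like ALDH2, and more so in TC32. It read 10.70, 10.68 and 10.64 in TC71 with mithramycin, against 10.51, 10.41 and 10.49 in TC71 controls. In TC32 it read 10.16, 10.20 and 10.14 with mithramycin, against 9.58, 9.65 and 9.56 in controls. The 4 groups thus form 4 separate steps, with log2 fold changes of 0.21 ± 0.06 in TC71 and 0.57 ± 0.06 in TC32.

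ALDH7A1, the lysine pathway enzyme lost in pyridoxine-dependent epilepsy, read 9.08, 9.11 and 9.10 on 208950_s_at in TC71 with mithramycin, against 8.86, 8.93 and 8.82 in TC71 controls, and 8.19, 8.51 and 8.32 in TC32 with mithramycin, against 7.91, 8.04 and 7.85 in TC32 controls. The probe set 208951_at gave the same picture, and on both the groups of a line did not overlap (0.23 ± 0.08 and 0.23 ± 0.06 in TC71, 0.41 ± 0.08 and 0.36 ± 0.06 in TC32). Its dim probe set 213591_at, between 4.06 and 5.05 on all arrays, did not follow. In TC71 its mithramycin arrays (4.16, 4.06 and 4.11) all lay below the controls (4.21, 4.34 and 4.24), with an effect of -0.16 ± 0.13. In TC32 its groups overlapped (0.20 ± 0.13). ALDH18A1, which encodes the enzyme that turns glutamate into the precursor of proline, was higher without overlap in both lines on 217791_s_at (0.19 ± 0.07 in TC71, 0.14 ± 0.07 in TC32). On 222416_at its groups overlapped (0.003 ± 0.07 in TC71, 0.05 ± 0.07 in TC32). ALDH3A2, the gene of Sjögren-Larsson syndrome, had effects between -0.04 and 0.13 over 3 probe sets and 2 lines, and only 202053_s_at in TC32 had mithramycin arrays (8.47, 8.51 and 8.49) all above the controls (8.33, 8.40 and 8.35).

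Taken over all 18 probe sets, the mean effect of both lines was above 0 in 17 and below 0 in 1, 202054_s_at of ALDH3A2 at -0.02. The median was 0.16, against 0.06 over all 54613 probe sets, and the highest value apart from ALDH8A1 was 0.39, of ALDH2. In TC71 the effects apart from ALDH8A1 ran from -0.19 to 0.40 and in TC32 from -0.12 to 0.57. The choice of members used this contrast, so nothing is read from these counts.

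**Figure D3:**
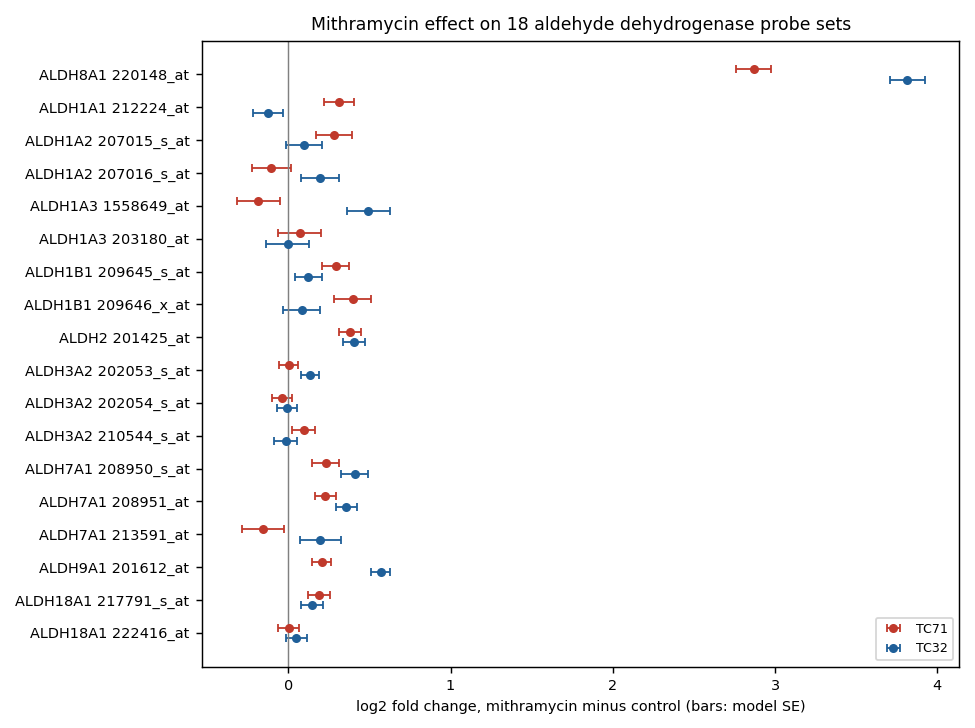
Log2 fold change, mithramycin minus control (horizontal axis), of the 18 probe sets of the 10 genes in TC71 and TC32, with the model's SE as bars. ALDH8A1 lies at 2.87 in TC71 and 3.82 in TC32, and the other 17 probe sets lie between -0.19 and 0.57.

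The lines differed in these genes before any drug. In solvent controls, 8 of the 18 member probe sets were higher in TC71 and 6 were lower at an adjusted p under 0.05 (limma over all probe sets, Benjamini-Hochberg), and 9 of the 10 genes had at least 1 such probe set. Over all 54613 probe sets, 20.7% were called higher and 21.9% lower. On the brightest probe set of each gene, 25.8% of all genes were called higher and 23.5% lower. A gene with several probe sets has more chances of at least 1 call, and no share of all genes was counted that way. The median size of the difference was 0.60 for the members and 0.20 for all probe sets. Only 3 of the 18 member probe sets lay below the array median on every array, and the part of signal level in this comparison was not tested.

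ALDH1A1 had by far the largest line difference of the members: 7.41, 7.69 and 7.75 in TC71 controls, against 12.70, 12.78 and 12.61 in TC32 controls. The log2 difference was -5.08 ± 0.09 (SE, limma adjusted p = 1.53e-13), a 33.8-fold lower value in TC71, which ranked 138 in size among the 54613 probe sets. ALDH1A3 ran the other way and was higher in TC71 by 1.49 ± 0.13 on 203180_at (limma adjusted p = 5.77e-07) and by 1.16 ± 0.13 on 1558649_at (limma adjusted p = 7.09e-06). TC32 thus had more ALDH1A1 signal and TC71 more ALDH1A3 signal, while ALDH1A2 passed the test on neither probe set (-0.27 ± 0.11 and 0.14 ± 0.12, limma adjusted p = 0.0652 and 0.386). The 95% intervals for ALDH1A2 ran from -0.51 to -0.03 and from -0.12 to 0.40. Without TC71 control replicate 1 the first probe set passed (limma adjusted p = 0.0465), and without TC32 control replicate 3 the second did (0.0447).

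Of the enzymes of other pathways, ALDH2 was lower in TC71 controls than in TC32 controls by a log2 difference of -0.84 ± 0.07 (limma adjusted p = 3.39e-07). ALDH1B1 was lower too, at -0.46 ± 0.08 and -0.75 ± 0.11 (limma adjusted p = 4.18e-04 and 1.06e-04), and so was ALDH18A1, at -0.50 ± 0.07 and -0.36 ± 0.07 (limma adjusted p = 3.81e-05 and 4.64e-04). The second ALDH18A1 call, on 222416_at, was lost with the beta-actin measure as covariate (-0.30, limma adjusted p = 0.0568), a setting added after seeing the data. Higher in TC71 were ALDH9A1, by 0.87 ± 0.06 (limma adjusted p = 3.90e-08), and ALDH7A1, by 0.94 ± 0.08 and 0.92 ± 0.06 on its bright probe sets (limma adjusted p = 6.00e-07 and 5.90e-08). The dim ALDH7A1 probe set 213591_at was at -0.22 ± 0.13 and did not pass (limma adjusted p = 0.211; 0.0326 without TC32 mithramycin replicate 2). ALDH3A2 was higher in TC71 on 2 of 3 probe sets (0.71 ± 0.06 and 0.32 ± 0.06, limma adjusted p = 2.11e-07 and 7.48e-04), and 210544_s_at gave 0.01 ± 0.07 (limma adjusted p = 0.937).

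ALDH8A1 itself was slightly higher in TC71 controls than in TC32 controls, by 0.30 ± 0.11 (limma adjusted p = 0.0379). That call rested on single arrays: it was lost without TC71 control replicate 2 (limma adjusted p = 0.0705), TC71 control replicate 3 (0.165), TC32 control replicate 1 (0.108) or TC32 control replicate 2 (0.111). It was also lost when arrays were centred on 13 housekeeping genes (0.08, limma adjusted p = 0.567), a scaling that moves the median line difference of all probe sets by -0.22, and with the beta-actin covariate (0.45, limma adjusted p = 0.0743). The 13 housekeeping genes were not level between the lines. In TC71 controls 2 of them were called higher and 7 lower (25.8% and 23.5% of all genes). Their median line difference was -0.29, against -0.03 for all genes. In the mean mithramycin effect 5 rose and 2 fell (30.9% and 20.2% of all genes). Calls lost or gained with this scaling rest on that reference. With the housekeeping scaling all 14 called member differences kept their sign. Apart from ALDH8A1 only 202054_s_at of ALDH3A2 lost its call (0.10, limma adjusted p = 0.335).

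With mithramycin, 7 member probe sets were higher in TC71 than in TC32 and 8 were lower, against 20.6% and 22.4% of all probe sets. ALDH1A1 still differed most, with 8.01, 7.97 and 7.81 in TC71, against 12.52, 12.63 and 12.56 in TC32, a log2 difference of -4.64 ± 0.09 (limma adjusted p = 3.56e-13). ALDH8A1 was now lower in TC71, by a log2 difference of -0.65 ± 0.11 (limma adjusted p = 2.36e-04), where its controls had been slightly higher. ALDH1A3 was higher by 1.56 ± 0.13 and 0.48 ± 0.13 (limma adjusted p = 3.81e-07 and 9.39e-03). ALDH2 was lower at -0.86 ± 0.07 (limma adjusted p = 2.73e-07) and ALDH9A1 higher at 0.51 ± 0.06 (limma adjusted p = 8.40e-06). ALDH18A1 was lower at -0.46 ± 0.07 and -0.41 ± 0.07 (limma adjusted p = 8.85e-05 and 1.71e-04). ALDH1B1 was lower at -0.30 ± 0.08 and -0.44 ± 0.11 (limma adjusted p = 0.0108 and 7.03e-03), the first of which was lost without TC71 mithramycin replicate 2 (-0.22, limma adjusted p = 0.0557). ALDH3A2 was higher at 0.58 ± 0.06 and 0.29 ± 0.06 (limma adjusted p = 1.69e-06 and 1.70e-03) and did not pass on 210544_s_at, and ALDH1A2 passed on neither probe set. The dim ALDH7A1 probe set 213591_at was lower in TC71 here (-0.57 ± 0.13, limma adjusted p = 2.58e-03), opposite to the bright probe sets of the gene (0.76 ± 0.08 and 0.79 ± 0.06), so the probe sets of ALDH7A1 disagree in direction.

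**Figure D4:**
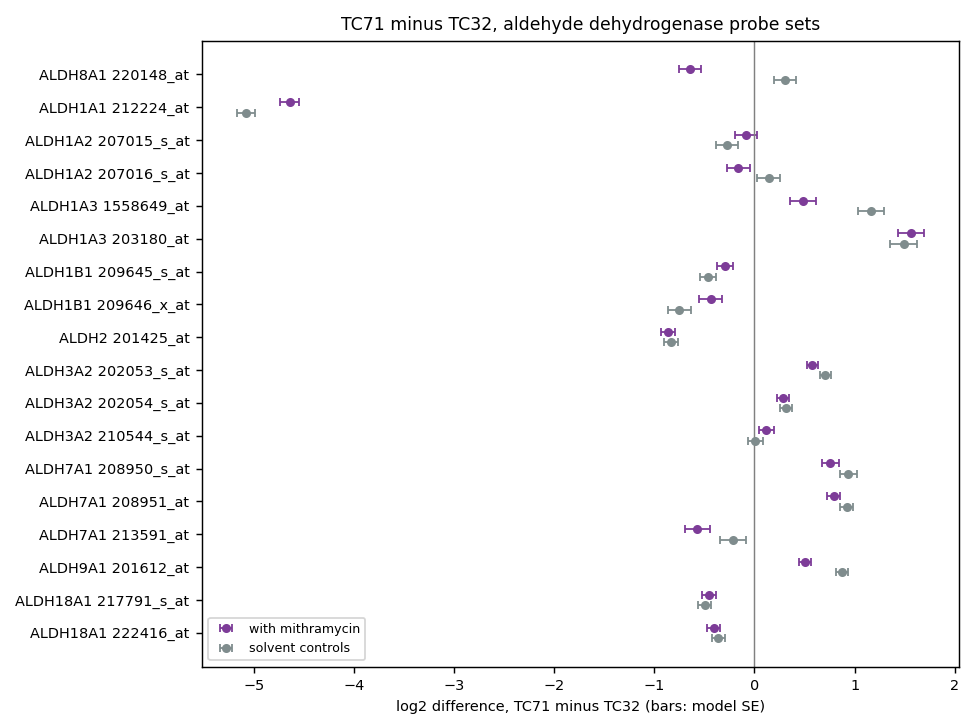
Log2 difference, TC71 minus TC32 (horizontal axis), of the 18 probe sets with mithramycin and in solvent controls, with the model's SE as bars. ALDH1A1 lies at -4.64 with mithramycin and at -5.08 in controls. ALDH8A1 lies at -0.65 with mithramycin and at 0.30 in controls, on opposite sides of 0.

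The mithramycin effect itself differed between the lines in 3 of 18 member probe sets, all with the lower effect in TC71 (limma, interaction term). Over all probe sets, 4.38% had a higher and 2.48% a lower effect in TC71. ALDH8A1 had an effect of 2.87 in TC71 and 3.82 in TC32, a difference of -0.95 ± 0.15 (SE; 95% interval -1.28 to -0.62; limma adjusted p = 2.06e-03). This call held in every alternative that kept the probe set, with differences between -1.08 and -0.72. Its size is as rough as the folds, because the ALDH8A1 control arrays lay between percentiles 11.8 and 18.17 of their arrays in TC71 and between 7.41 and 10.77 in TC32. The difference is made of the -0.65 between the mithramycin groups, whose arrays lay between percentiles 61.63 and 73.94, and of the 0.30 between the control groups. ALDH9A1 had 0.21 in TC71 and 0.57 in TC32, a difference of -0.36 ± 0.08 (limma adjusted p = 0.0188). It missed the threshold narrowly without TC71 mithramycin replicate 3 (limma adjusted p = 0.0540), TC71 control replicate 1 (0.0501), TC71 control replicate 3 (0.0515) or TC32 control replicate 3 (0.0507). When arrays were centred on housekeeping genes, which moves the median difference of effects by 0.22, ALDH9A1 stood at -0.14 (limma adjusted p = 0.485). With replicates paired by number within each line, its adjusted p was 0.0566 (limma).

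The ALDH1A3 probe set 1558649_at gave a difference of -0.68 ± 0.19 (limma adjusted p = 0.0488). It passed only just: the call was lost on leaving out any 1 of 9 arrays, namely replicates 2 or 3 of TC71 with mithramycin, replicates 1 or 2 of TC71 controls, replicates 1 or 3 of TC32 with mithramycin, or any TC32 control, with adjusted p between 0.0504 and 0.118. The brighter ALDH1A3 probe set 203180_at gave 0.08 ± 0.19 (95% interval -0.33 to 0.48, limma adjusted p = 0.894). ALDH1A1 had an effect of 0.31 in TC71 and -0.12 in TC32, a difference of 0.44 ± 0.13 that missed the threshold (limma adjusted p = 0.0678). For ALDH2 the difference of the effects was -0.02 ± 0.10, with a 95% interval of -0.24 to 0.19.

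The other 9 human aldehyde dehydrogenase genes on the arrays, taken whatever their value, had a narrow range of mithramycin effects. On the brightest probe set of each, 2 rose and 7 did not pass in the mean of both lines. The median was 0.11, against 0.08 over all 19775 genes (30.9% of genes called higher and 20.2% lower). The 2 were ALDH3A1, an enzyme abundant in cornea and stomach, at 0.29 ± 0.08 (SE, limma adjusted p = 7.89e-03), and ALDH3B1, which oxidizes lipid-derived aldehydes, at 0.23 ± 0.07 (limma adjusted p = 0.0153). With housekeeping centring neither passed (0.22 and 0.15, limma adjusted p = 0.0872 and 0.203). The line difference in controls was called higher in TC71 for 3 and lower for 2, with 25.8% of genes called higher and 23.5% lower. ALDH1L2, the mitochondrial folate enzyme, was higher in TC71 by 2.48 ± 0.14 (limma adjusted p = 8.68e-09). ALDH5A1, which clears succinic semialdehyde from GABA breakdown, was higher by 1.65 ± 0.10 (limma adjusted p = 2.00e-08), and ALDH16A1 by 0.35 ± 0.08 (limma adjusted p = 2.17e-03). ALDH16A1 was not called with housekeeping centring (0.12, limma adjusted p = 0.351) or with beta-actin as covariate (0.25, limma adjusted p = 0.168). ALDH1L1, the cytosolic folate enzyme, was lower in TC71 at -0.46 ± 0.08 (limma adjusted p = 5.09e-04), as was ALDH4A1 of proline breakdown at -0.44 ± 0.07 (limma adjusted p = 1.23e-04). The dimmer probe sets of both genes did not pass. For ALDH1L1, 215798_at gave 0.05 ± 0.11 (limma adjusted p = 0.765). For ALDH4A1, 211552_s_at gave -0.23 ± 0.09 (limma adjusted p = 0.0591) and passed in 4 alternatives. ALDH3B2 (0.15 with mithramycin, limma adjusted p = 0.101) and ALDH6A1 (0.08, limma adjusted p = 0.404) passed neither test on their brightest probe sets. Of the other 4 ALDH6A1 probe sets, 3 rose with mithramycin: 221588_x_at by 0.27 ± 0.05 (limma adjusted p = 1.30e-03, kept in every alternative that held it), 204290_s_at by 0.30 ± 0.10 (limma adjusted p = 0.0213) and 204289_at by 0.18 ± 0.06 (limma adjusted p = 0.0314). These last 2 calls were lost with housekeeping centring (limma adjusted p = 0.0578 and 0.392) and with beta-actin as covariate (0.140 and 0.155). The call of 204290_s_at was also lost without TC71 control replicate 3, TC32 control replicate 1 or TC32 control replicate 3 (0.0512 to 0.0529), and that of 204289_at without TC71 mithramycin replicate 1, TC71 control replicate 3, TC32 mithramycin replicate 1 or TC32 control replicate 2 (0.0668 to 0.0786). The fifth ALDH6A1 probe set, 221590_s_at, was at 0.18 (limma adjusted p = 0.0508) and passed without TC71 mithramycin replicate 3, TC71 control replicate 3, TC32 mithramycin replicate 2 or TC32 control replicate 3 (0.0261 to 0.0405). The dimmer probe set of ALDH5A1 that passed (203609_s_at, 0.17 ± 0.05, limma adjusted p = 0.0232) lost its call without TC71 mithramycin replicate 3, TC71 control replicates 1 or 3, or TC32 control replicates 1 or 3 (0.0519 to 0.0602). That of ALDH3B1 (211004_s_at, 0.11 ± 0.04, limma adjusted p = 0.0365) lost its call on leaving out any 1 of 7 arrays, namely TC71 mithramycin replicates 1 or 2, TC71 control replicates 2 or 3, TC32 mithramycin replicate 3, or TC32 control replicates 2 or 3 (0.0556 to 0.0824).

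Of 26 listed retinoid genes around the ALDH1A enzymes, 21 were measured. In the mean mithramycin effect of both lines, 4 were called higher and 7 lower, with 10 not passing. Their median was 0.003, against 0.08 for all genes, of which 30.9% were called higher and 20.2% lower. Of the 7, RARA, a retinoic acid receptor gene, lost its call without TC71 mithramycin replicate 3, TC71 control replicate 3, TC32 mithramycin replicate 2, TC32 control replicate 1 or TC32 control replicate 3 (-0.21 with all arrays, limma adjusted p = 0.0260, and between 0.0512 and 0.0631 without 1 of these). RXRA, the partner receptor of the retinoic acid receptors, fell by 1.34 ± 0.06 log2 units in the mean of both lines (SE, limma adjusted p = 1.57e-09), although its other probe set was at -0.20. CYP26B1, which degrades retinoic acid, changed by -0.61 ± 0.08 on its brightest probe set (limma adjusted p = 3.80e-05) and by -0.0001 on the other. RDH5, a retinol dehydrogenase, rose by 0.67 ± 0.05 (limma adjusted p = 9.81e-08), and CYP1B1, a cytochrome P450 that also acts on retinoids, by 0.75 ± 0.15 (limma adjusted p = 1.40e-03; 0.21 to 0.75 over 4 probe sets).

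The retinoid genes also differed between the lines, with 4 called higher and 9 lower in TC71 controls and 8 not passing, where 25.8% of all genes were called higher and 23.5% lower. Of the 9 lower calls, those of CRABP2, a retinoic acid binding protein (-0.29, limma adjusted p = 0.0388), and RARA (-0.26, limma adjusted p = 0.0429) were each lost on leaving out any 1 of 6 arrays. For CRABP2 these were the 6 control arrays (adjusted p between 0.0501 and 0.130), and for RARA the 3 TC71 controls, TC32 mithramycin replicate 1 and TC32 control replicates 1 and 3 (0.0516 to 0.151). DHRS3, which reduces retinaldehyde back to retinol and was singled out after its values were seen, stood at 4.13 in TC71 controls and 9.86 in TC32 controls, a log2 difference of -5.73 ± 0.12 (limma adjusted p = 4.56e-13), in the direction of ALDH1A1. CYP26B1 stood at 8.82 in TC71 controls and 4.69 in TC32 controls (4.12 ± 0.11, limma adjusted p = 5.94e-12), with 0.51 on its other probe set. CYP1B1 was higher in TC71 by 3.84 ± 0.22 (limma adjusted p = 6.86e-09), and its 4 probe sets ran from 0.12 to 4.82. RXRA was lower in TC71 at -0.97 ± 0.08 (limma adjusted p = 4.73e-07), with 0.02 on its other probe set. RDH5 did not pass (-0.001 ± 0.07, limma adjusted p = 0.991).

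**Figure D5:**
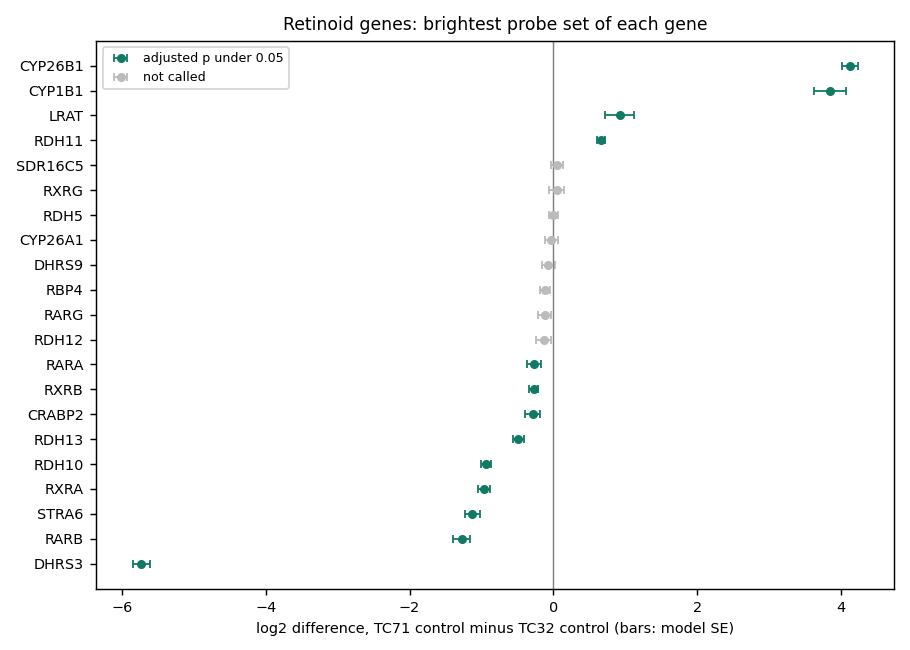
Log2 difference, TC71 control minus TC32 control (horizontal axis), of the brightest probe set of 21 retinoid genes, with the model's SE as bars. Green points passed an adjusted p of 0.05 and grey points did not. DHRS3 lies at -5.73 and CYP26B1 at 4.12. The receptors RXRA, RXRB, RARA, RARB and RARG lie below 0, RARG without passing.

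The other enzymes of the kynurenine pathway, in which ALDH8A1 acts, changed far less than ALDH8A1 with mithramycin. In the mean of both lines, 3 of 12 genes rose, 0 fell and 9 did not pass, against 30.9% called higher and 20.2% lower over all genes. The median was 0.07, against 0.08 over all genes. By line, 1 rose and 1 fell in TC71, and 3 rose and 0 fell in TC32. Of all 54613 probe sets, 15394 were called in TC71 and 19826 in TC32, in either direction. The difference of the effects was called lower in TC71 for 3 and higher for 0, where 2.48% and 4.38% of all probe sets were called. KYAT3, a kynurenine aminotransferase, rose by 0.43 ± 0.06 (limma adjusted p = 6.38e-05). HAAO, whose product is the substrate for the step before ALDH8A1, rose by 0.34 ± 0.08 (limma adjusted p = 4.70e-03), and IDO1, an enzyme of the first step of tryptophan breakdown, by 0.24 ± 0.06 (limma adjusted p = 7.58e-03). IDO1 did not pass with housekeeping centring (0.16, limma adjusted p = 0.156). With beta-actin as covariate neither HAAO (0.27, limma adjusted p = 0.0797) nor IDO1 (0.19, limma adjusted p = 0.0993) passed. ACMSD, which makes the substrate of ALDH8A1, was at 2.22 with mithramycin and 2.20 in controls in TC71, and at 2.22 and 2.42 in TC32 (mean effect -0.09 ± 0.05, limma adjusted p = 0.215). These ACMSD values are as low as those of ALDH8A1 in controls, where array signal and background are hard to tell apart. A change of ACMSD may therefore be missed. Between the lines, 5 of the 12 genes were higher and 2 lower in TC71 controls (25.8% and 23.5% of all genes). KMO, kynurenine monooxygenase, had the largest of these differences, with 8.86 in TC71 controls and 3.25 in TC32 controls (5.61 ± 0.10, limma adjusted p = 1.69e-13). KMO and ACMSD were picked after their values were seen.

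Enzymes that reduce aldehydes and ketones rose in 5 of 9 measured genes and fell in 0, with a median of 0.17, against 0.08 over all genes. The counts of this and the next 3 lists are for the mean effect of both lines. They stand beside 30.9% of all genes called higher and 20.2% called lower. AKR7A2 rose by 0.51 ± 0.04 (limma adjusted p = 7.42e-07), DCXR by 0.37 ± 0.05 (limma adjusted p = 1.14e-04), CBR3 by 0.34 ± 0.04 (limma adjusted p = 1.69e-05) and CBR1 by 0.19 ± 0.05 (limma adjusted p = 0.0118). Of 7 alcohol dehydrogenases, which make the aldehydes, ADH5 (0.29 ± 0.04, limma adjusted p = 1.53e-04) and ADH1B (0.19 ± 0.06, limma adjusted p = 0.0210) rose and 5 did not pass. In proline and lysine metabolism, around ALDH18A1 and ALDH7A1, 3 of 9 genes rose and 1 fell. OAT, ornithine aminotransferase, rose by 0.51 ± 0.05 (limma adjusted p = 2.83e-06), GCDH by 0.31 ± 0.05 (limma adjusted p = 1.22e-04) and AASDHPPT by 0.21 ± 0.06 (limma adjusted p = 7.39e-03), while PYCR3, a proline synthesis enzyme, fell by 0.25 ± 0.05 (limma adjusted p = 9.90e-04). Around ALDH9A1, in choline and carnitine metabolism, 1 of 6 genes rose, CHDH by 0.17 ± 0.06 (limma adjusted p = 0.0322). That call was lost on leaving out any 1 of 7 arrays, namely replicate 2 or 3 of TC71 with mithramycin, replicate 2 or 3 of TC71 controls, replicate 3 of TC32 with mithramycin, or replicate 1 or 3 of TC32 controls, with adjusted p between 0.0548 and 0.0790. ADH1B was lost without TC71 mithramycin replicate 1 (limma adjusted p = 0.0531) or TC32 control replicate 3 (0.0517). With housekeeping centring, CBR1, ADH1B, AASDHPPT and CHDH did not pass (0.11, 0.11, 0.14 and 0.09, limma adjusted p = 0.296, 0.323, 0.110 and 0.347). Nor did they with beta-actin as covariate (limma adjusted p = 0.0528, 0.134, 0.0853 and 0.0626).

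Targets of NRF2, the factor that switches on many aldehyde-clearing enzymes, moved both ways: 6 of 11 rose and 4 fell when the lines are averaged (30.9% and 20.2% of all genes). By line, their median effect was 0.23 in TC71 and -0.03 in TC32, against 0.07 and 0.08 for all genes, and the median difference between the lines' effects was 0.25, against -0.02 for all genes. Thioredoxin reductase TXNRD1 fell by 0.65 ± 0.04 (limma adjusted p = 6.04e-08), heme oxygenase HMOX1 by 0.51 ± 0.12 (limma adjusted p = 3.79e-03; 0.0510 with beta-actin as covariate) and the cystine transporter gene SLC7A11 by 0.39 ± 0.05 (limma adjusted p = 4.09e-05). OSGIN1 rose by 0.30 ± 0.06 (limma adjusted p = 9.78e-04). Between the lines, 8 of the 11 were lower and 1 higher in TC71 controls (23.5% and 25.8% of all genes), with a median of -0.98, against -0.03 for all genes.

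The genes next to the members on the chromosomes were also examined. Of 20 neighbours, 8 rose, 3 fell and 9 did not pass in the mean mithramycin effect, against 30.9% of all genes called higher and 20.2% called lower. On either side of ALDH8A1, LINC03002 was at 0.12 ± 0.07 (limma adjusted p = 0.181) and HBS1L, a translation quality-control factor, rose by 0.17 ± 0.05 (limma adjusted p = 0.0240), so neither came near the 3.34 of ALDH8A1. ANXA1, annexin A1, beside ALDH1A1, was lower in TC71 controls than in TC32 controls by a log2 difference of -1.95 ± 0.05 (limma adjusted p = 6.20e-12), while TMC1 on the other side was at -0.03 ± 0.12 (limma adjusted p = 0.889). SHB, an adaptor protein gene beside ALDH1B1, fell by 2.56 ± 0.08 with mithramycin (limma adjusted p = 5.21e-11), and MAPKAPK5-AS1 beside ALDH2 rose by 0.81 ± 0.04 (limma adjusted p = 4.65e-09). The others that rose were TCTN3 (0.38) beside ALDH18A1, ASB7 (0.18) beside ALDH1A3, TMCO1 (0.18) and MGST3 (0.17) on the sides of ALDH9A1, and ANXA1 (0.12). ACAD10 beside ALDH2 passed in the mean (0.25) but differed between the lines, with -0.15 ± 0.10 in TC71 (limma adjusted p = 0.307) and 0.66 ± 0.10 in TC32 (limma adjusted p = 2.35e-04), a difference of -0.81 ± 0.15 (limma adjusted p = 4.08e-03). GRAMD2B beside ALDH7A1 (-0.65) and LRRK1 beside ALDH1A3 (-0.52) fell. TMC1, MYZAP, ALDH1A2-AS1, IGFBPL1, SLC47A1, SLC47A2, PHAX and PDLIM1 did not pass, with values between -0.26 and 0.18. PHAX (-0.26, limma adjusted p = 0.0622) passed in 7 alternatives, among them housekeeping centring (-0.33, limma adjusted p = 8.34e-03) and leaving out TC71 control replicate 3, TC32 mithramycin replicate 2 or TC32 control replicate 3 (0.0411, 8.64e-03 and 0.0304). MYZAP (0.13, limma adjusted p = 0.0604) passed in 3, among them leaving out TC71 control replicate 3 (0.0420) or TC32 control replicate 2 (0.0210), and PDLIM1 passed without TC32 mithramycin replicate 1 (0.27, limma adjusted p = 0.0357). With housekeeping centring HBS1L, ACAD10, ASB7, TMCO1, MGST3 and ANXA1 no longer passed, with values between 0.04 and 0.17. With beta-actin as covariate HBS1L, ACAD10 and ANXA1 did not pass (limma adjusted p = 0.367, 0.0794 and 0.152). HBS1L was also lost without TC71 mithramycin replicate 1, TC71 control replicate 1 or TC32 control replicate 1 (limma adjusted p between 0.0524 and 0.0601), and the ANXA1 effect without TC71 mithramycin replicate 3, TC71 control replicate 1 or TC32 control replicate 3 (0.0548 to 0.0560).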

How the data were processed

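RNA of 12 samples was measured on 1-colour arrays, 1 array per sample, 3 per group. The deposited values are log2 expression values per probe set, made by the authors with RMA (background correction, quantile normalization and summary of probes), per the submitters' processing notes. The sources used here do not give its version or settings. RMA removes a shift shared by most genes, so changes are relative to the other genes of an array. From these log2 values, 62 control probe sets of 54675 were left out and 54613 were fitted with limma 3.58.1 (R 4.3.3) with 4 group means, two-sided, with Benjamini-Hochberg adjustment over all probe sets of a contrast and a threshold of 0.05. The procedure was tested on simulated data. A symbol was used where the platform annotation gave 1 (41091 probe sets, 1801 with several, 11721 unnamed here), updated through Entrez identifiers of the RefSeq table of GRCh38.p14 (41037 matched).

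Members and lists were chosen with earlier results of these data known. The text names every member probe set, the other aldehyde dehydrogenase genes, the neighbours of members, up to 4 genes of each list with the largest called mean effect, and the 5 profiles nearest ALDH8A1; exceptions are stated. A gene's brightest probe set has the highest mean over all 12 arrays. The labels call the replicates biological without naming separate cultures, so p-values measure the spread between these samples. Samples sharing a replicate number showed little shared deviation (2 of 12 pairs correlated over 0.1, range -0.15 to 0.21), so numbers were not used as pairs. The pairs of mithramycin with control were all above 0 in TC32 (0.07, 0.21 and 0.03) and all below 0 in TC71 (-0.09, -0.02 and -0.03). Samples of unlike number were not compared, so a pairing is not excluded. The number of arrays limits precision, and no detection calls, scan dates or batches were used here. Alternatives were other normalizations, filters, probe set choices, blocks and leaving out each array.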

Additional observations from a re-analysis of the deposited data

Results flagged for a closer look

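The mithramycin effect on 3 probe sets differed between the lines by the interaction test of limma over all probe sets. For ALDH8A1 (220148_at) the effect in TC71 minus that in TC32 was -0.95, with 2.87 in TC71 and 3.82 in TC32. For ALDH1A3 (1558649_at) it was -0.68, with -0.19 in TC71 and 0.49 in TC32, and the other ALDH1A3 probe set, 203180_at, gave 0.08. For ALDH9A1 (201612_at) it was -0.36, with 0.21 in TC71 and 0.57 in TC32. Centring on housekeeping genes left ALDH8A1 past the threshold and the other 2 short of it.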

How the results depend on the processing

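Among the genes named, the only called value that changed sign was the line difference of CBR3 in controls, 0.22 in the reported fit and -0.0021 with housekeeping centring, where it was not called. Of 1023 member tests under the alternatives, 983 kept their call and 40 changed it, 21 of these on leaving out 1 array. Beside those named above, the ALDH1A1 difference of effects passed with limma's trend and robust options (adjusted p = 9.31e-03), at a mean of at least 6 (0.0205), after a second quantile normalization (0.0256), with housekeeping centring (2.64e-03) and with the brightest probe set per gene (0.0491). Housekeeping centring also ended the line difference in controls of ALDH3A2 202054_s_at (0.10, adjusted p = 0.335) and made calls for ALDH7A1 213591_at and ALDH1A2 207015_s_at in controls and for the ALDH1B1 209646_x_at difference of effects (0.54, adjusted p = 0.0321).

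Counts of called probe sets were 24802 for the mean effect, 19826 for TC32, 15394 for TC71, 3744 for the difference of effects, 23281 for the line difference in controls and 23503 with mithramycin. Fewer probe sets are tested, by construction, in the next 3 settings. With a mean of at least 6 the counts were 11546 (mean), 10642 (TC32), 9480 (TC71), 12118 (controls, 9 of them members) and 12180 (with mithramycin, 9 members). With the brightest probe set per gene they were 10631, 8891, 7018, 1975 for the difference of effects, 10185 (9 members) and 10451 (9 members). Without sets ending in _x_at or _s_at they were 16503, 13015, 10039, 14994 (8 members) and 14977 (9 members). Housekeeping centring gave 6714 for the difference of effects. The beta-actin difference as a covariate, added after seeing the data, gave 9477 for TC71 and 2230 for the difference of effects, with 1 member, ALDH8A1. The cause was not tested for these last settings.

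On leaving out 1 array, the counts ran from 22426 to 25713 for the mean effect, from 16995 to 20263 for TC32, from 12589 to 16416 for TC71, from 2804 to 3930 for the difference of effects (1 to 3 members; 1 without TC71 mithramycin replicate 3, TC71 control replicate 1 or TC32 control replicate 3), from 21134 to 24033 for controls (13 to 15 members) and from 20876 to 24136 with mithramycin (14 to 15 members). The beta-actin measure, mithramycin minus control, ran from -0.76 to -0.30 in TC71 and from -0.15 to -0.06 in TC32. Replicate numbers changed little as a block: 3484 calls for the difference of effects (3 members), 23153 for controls (15 members) and 23394 with mithramycin (15 members). A replicate block of pairs within each line gave 2935 and 2 members, without ALDH9A1. At 3 arrays per group, small effects of dim probe sets such as ALDH1A2 are not resolved.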

Other observations

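Of the 5 measured aldo-keto reductase genes in the list of aldehyde and ketone reduction, 4 were called lower in TC71 controls, as ALDH1A1 was. AKR7A2 was higher (0.61 ± 0.06, SE, limma adjusted p = 2.19e-06). Over all genes, 23.5% were called lower and 25.8% higher. These 5 genes were picked after their values were seen, from a list of 9 with 4 called higher and 4 lower. AKR1C3 stood at 4.08 in TC71 controls and 8.46 in TC32 controls, a log2 difference of -4.38 ± 0.08 (SE, limma adjusted p = 1.69e-13). AKR1B10 was lower in TC71 at -2.90 ± 0.20 (limma adjusted p = 4.00e-08), AKR1C2 at -1.65 ± 0.11 (limma adjusted p = 3.44e-08) and AKR1C1 at -1.25 ± 0.09 (limma adjusted p = 5.47e-08). The AKR1C genes are close copies of each other, so their probe sets may share signal. Of the 9 measured genes for aldehyde and ketone reduction, the 4 AKR1 genes were the ones lower in TC71 controls, and 4 others were higher. Among these were DCXR, by 1.08 ± 0.08 (limma adjusted p = 6.91e-08), and CBR4, by 1.19 ± 0.10 (limma adjusted p = 2.18e-07). CBR3 was also among them, but not with housekeeping centring or with beta-actin as covariate (0.17, limma adjusted p = 0.208). AASS, which starts the lysine breakdown that leads to the substrate of ALDH7A1, was lower in TC71 controls at -1.73 ± 0.10 (limma adjusted p = 6.11e-09), whereas ALDH7A1 was higher there by 0.94 and 0.92 on its bright probe sets.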
